A study of Mus musculus with 6 samples.

Results

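The tumour suppressor p53 and 9 genes that it is known to induce were followed in whole mouse hearts at embryonic day 9.5. The members were chosen by symbol: Trp53, which encodes p53, and Cdkn1a, Mdm2, Ccng1, Trp53inp1, Phlda3, Zmat3, Aen, Btg2 and Plk2, which are p53-induced genes outside the BCL2 family. All 10 symbols were found in the deposited table, each as 1 of its 30323 Ensembl gene IDs, and all 10 passed the filter on low counts that left 14697 genes to test. Hearts with a deletion of Cdc42, a small GTPase gene, in the heart muscle (MCKO, genotype label CDC-42 KO, 3 libraries) were compared with control hearts (genotype label C57BL/6 ctrl, 3 libraries). The sources used here do not give the Cre line behind the deletion, the strain of the MCKO embryos or any allele that the controls share with them. The deletion is labelled as one of the heart muscle, but RNA came from the whole heart, so endocardium, blood and other cells contribute to every value. In such bulk samples, fewer cells of a type and less RNA per cell cannot be told apart.

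p53 is a transcription factor that is kept scarce by Mdm2, a ubiquitin ligase that marks it for destruction and is itself induced by p53. When DNA is damaged, ribosomes fail to assemble or nutrients run short, p53 protein is stabilised and switches on genes that stop the cell cycle, repair DNA, change metabolism or start cell death. Its activity is set mainly at the protein level, so the amount of Trp53 mRNA alone does not show how active p53 is. In mouse embryos, loss of Mdm2 is lethal before the heart forms unless p53 is removed too. Several of the genes are also induced by other factors: Cdkn1a responds to many growth and differentiation signals, and Btg2 and Plk2 are known as immediate early genes, which are switched on within minutes of a stimulus.

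The stretches of promoter where members differ are shown first. An exact match to a p53 motif was found beside the start of 5 genes, and another motif in 2. RefSeq promoter windows (build GRCm38.p6, 250 bases before to 50 bases after a start) were matched for 8 of the 10 genes, in 10 windows. The p53 decamer, the 10-base arm of a p53 response element, was searched by its consensus on both strands. It occurred in 6 of these 10 windows, from 5 genes, and in 8.36% of all 32851 windows. Its matches are in capitals below, with up to 10 bases on either side, 5′ to 3′ on the strand of the gene.
Trp53: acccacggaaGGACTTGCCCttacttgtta
Cdkn1a: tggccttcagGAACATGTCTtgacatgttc
Mdm2: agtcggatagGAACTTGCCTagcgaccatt
Ccng1: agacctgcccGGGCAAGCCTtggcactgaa
Aen: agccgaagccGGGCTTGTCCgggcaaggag
These lie at chr11:69580274-69580303 on the plus strand (Trp53), chr17:29090918-29090947 on the plus strand (Cdkn1a), chr10:117710925-117710954 on the minus strand (Mdm2), chr11:40755452-40755481 on the minus strand (Ccng1) and chr7:78895927-78895956 on the plus strand (Aen). The Cdkn1a decamer began 51 bases before the first of 2 RefSeq starts, and that window held another match 73 bases before the start. The second Cdkn1a window held no match. The 2 windows of Aen overlap and share the same decamer.

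Btg2 and Plk2 had no exact match to the p53 decamer in these windows. Both held TGACGTCA, the palindrome to which the ATF and CREB factors are known to bind, in capitals below.
Btg2: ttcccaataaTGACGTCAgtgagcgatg
Plk2: gcgctcgccgTGACGTCAcgaggccccg
The Btg2 stretch is chr1:134079304-134079331 on the minus strand, with the motif 166 bases before the start, and the Plk2 stretch is chr13:110394972-110394999 on the plus strand, with the motif 62 bases before the start. This palindrome, which reads the same on both strands, occurred in 1.79% of all windows. The CArG box of serum response factor was searched too, on both strands, and occurred in 0 of the 10 windows and in 1.63% of all windows. Phlda3 held none of these motifs in its window, and windows for Trp53inp1 and Zmat3 are not shown. The motifs were chosen after the expression values were known, a match shows only that the letters are there, and a window without one can have sites outside it. Only exact matches to each motif were searched, so a window without one can also hold an inexact p53 site.

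The libraries held 23883877 to 34246477 estimated counts in MCKO and 19256840 to 32169289 in control hearts. CPM values are counts per 1000000 of these library totals, and ± gives the SD over 3 libraries of a group. Cdc42, the deleted gene, had 238.5 to 247.6 CPM in MCKO hearts and 377.3 to 423.7 CPM in control hearts, a log2 fold change of -0.66 (SE 0.047, edgeR adjusted p = 2.93e-06). Mitochondrially encoded genes took 1.31 to 1.38% of the counts in MCKO and 3.13 to 3.55% in control libraries. Most tested genes differed. At an adjusted p under 0.05 by edgeR's quasi-likelihood test, 58.4% of tested genes passed, made up of 29.3% that rose and 29.1% that fell in MCKO hearts. The CPM ranges of the groups did not overlap for 65.5% of tested genes. The labels do not tie a library to a litter, a batch or a date, so a p-value here reflects the spread between libraries that may differ only technically.

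The 10 genes did not move together. Cdkn1a, Btg2, Plk2, Phlda3 and, with a call that 9 of 15 alternative settings lost, Mdm2 rose in MCKO hearts, Aen, Ccng1 and Trp53 fell, and Trp53inp1 and Zmat3 did not pass the test. The 8 called genes and the 8 whose groups did not overlap are the same genes, and this share is to be read against the 58.4% and 65.5% of all tested genes. The median log2 fold change was 0.14, against 0.00057 over all tested genes, and the values ran from -0.94 for Aen to 1.80 for Cdkn1a. Cdkn1a and Btg2 were at least 2-fold higher, as were 7.03% of tested genes. None of the 10 was at least 2-fold lower with TMM scaling, against 3.99% of tested genes, but Aen was with library totals only (log2 fold change -1.003). Summed over the 10 genes, the libraries held 612.1 to 633.5 CPM in MCKO and 579.95 to 625.6 CPM in control hearts, so the summed ranges overlapped.

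**Figure D1:**
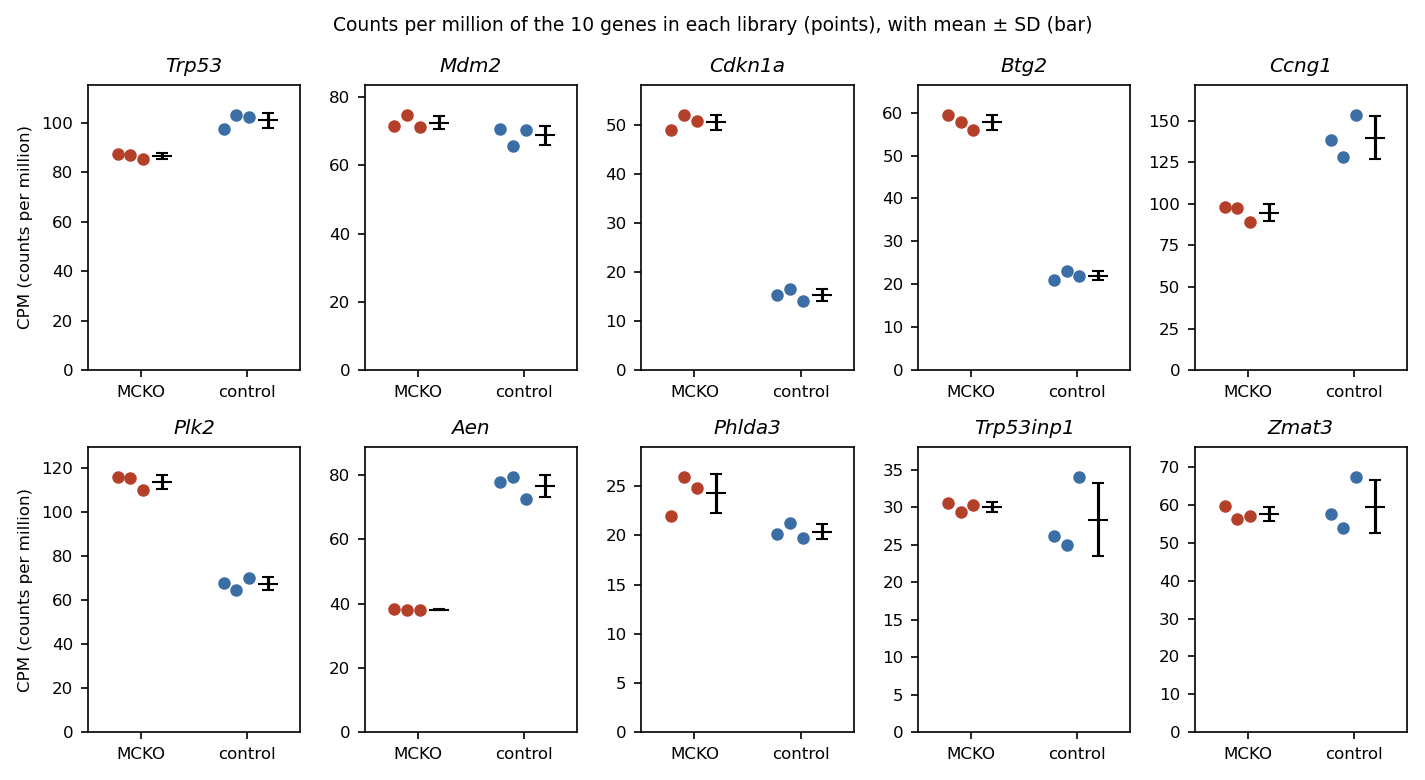
CPM (vertical axes, from 0) of the 10 genes in the 3 MCKO and 3 control libraries (points), with the mean and SD of each group as a bar beside them. Cdkn1a, Btg2 and Plk2 stand clearly higher in MCKO, Aen and Ccng1 lower, and the groups overlap for Trp53inp1 and Zmat3.

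**Figure D2:**
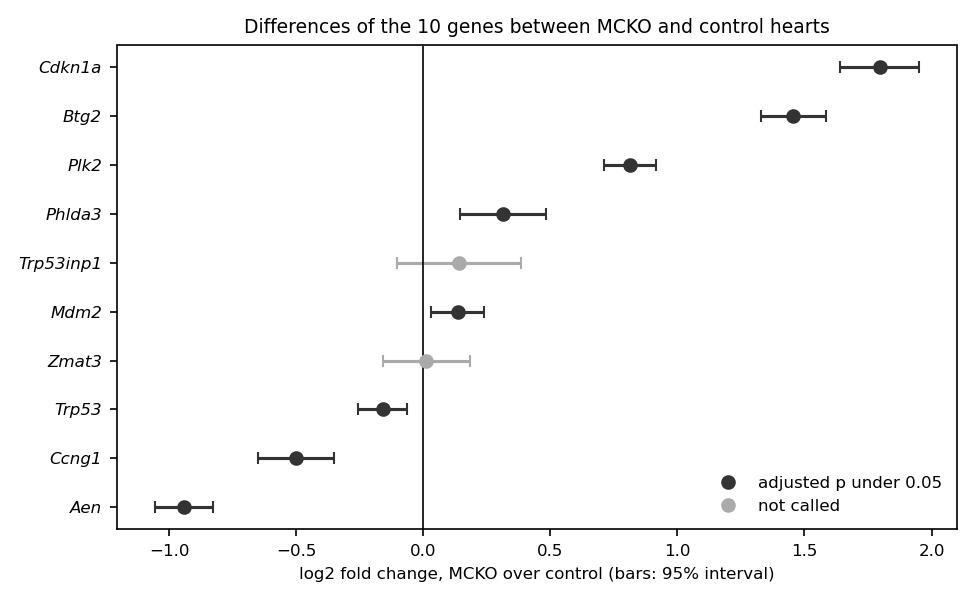
Log2 fold changes of MCKO over control (horizontal axis) with 95% intervals from the edgeR fit, sorted from Cdkn1a at 1.80 to Aen at -0.94. Grey marks the 2 genes that were not called.

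The factor and its brake changed little and in opposite directions. Trp53 had 87.3, 87.1 and 85.2 CPM in MCKO libraries 1, 2 and 3, against 97.6, 103.1 and 102.2 CPM in control libraries 1, 2 and 3. Every MCKO library was below every control library, by a log2 fold change of -0.16 (SE 0.042, edgeR adjusted p = 0.00921). Trp53 (ENSMUSG00000059552) lies on chromosome 11 at 69580359 to 69591873 in GRCm38. Mdm2, which encodes the ubiquitin ligase that limits p53, had 71.7, 74.7 and 71.2 CPM in MCKO and 70.5, 65.6 and 70.4 CPM in control hearts. The groups were separated by less than 1 CPM, a difference of 0.13 on the log2 scale (SE 0.046, edgeR adjusted p = 0.0316). Of the settings that lost this call, 5 left out a library: without any one of the MCKO replicates or of control replicates 1 and 2 edgeR's adjusted p was 0.0553 to 0.118. The direction was kept in all 15 (0.0731 to 0.15). Mdm2 (ENSMUSG00000020184) lies on chromosome 10 at 117688875 to 117710758.

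Other genes that restrain p53 were counted as a list. This list and the other gene lists below were written with earlier results of these data known. Of 11 such genes, all tested, 3 rose, 2 fell and 6 did not pass, against 58.4% of all tested genes that passed. The median log2 fold change was 0.0096. The member that stood out was Ppp1r13l, which encodes iASPP, an inhibitor that binds p53: it averaged 90.1 ± 6.93 CPM in MCKO and 36.5 ± 4.72 CPM in control hearts (n = 3 each), a log2 fold change of 1.37 (SE 0.10, edgeR adjusted p = 1.00e-05). The ubiquitin ligase genes Ube4b and Trim24 rose by 0.25 (SE 0.037) and 0.18 (SE 0.046) on the log2 scale. Huwe1, another ubiquitin ligase gene, fell by 0.16 on the log2 scale (SE 0.049, edgeR adjusted p = 0.0169), which did not pass without MCKO replicate 2 (adjusted p = 0.0539) or 3 (0.0779). Mdm4, the relative of Mdm2 that blocks p53 directly, averaged 181.4 ± 5.83 CPM in MCKO and 172.9 ± 13.1 CPM in control hearts and was not called (edgeR adjusted p = 0.0696). The number of lower genes on this list, 2 here, ran from 0 to 4 over the alternatives, and the number of higher ones from 2 to 5, reached without control replicate 3.

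Genes that stabilise, modify or assist p53 were counted in the same way. Of 18, 17 were tested, of which 6 rose and 5 fell, with a median of 0.096. The 64.7% called is near the 58.4% of all tested genes. Rpl23, a ribosomal protein that can bind Mdm2, rose by 0.32 on the log2 scale (SE 0.039), and Atr, a kinase of the response to stalled replication, by 0.40 (SE 0.051). Usp10, a deubiquitinase of p53, fell to 81.8 ± 0.678 CPM in MCKO, against 121.5 ± 5.18 CPM in control hearts, and Trp53bp1, a DNA double-strand break protein, fell by 0.32 on the log2 scale (SE 0.043). Cdkn2a, which encodes the Mdm2 inhibitor ARF, was below the filter, with at most 3 counts in any library.

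Of the 10 genes, Cdkn1a and Btg2, which both hold back the cell cycle, had the largest rises. Cdkn1a encodes p21, which binds and inhibits cyclin-dependent kinases. It had 48.9, 52.0 and 50.8 CPM in the MCKO libraries, against 15.3, 16.5 and 14.1 CPM in the control libraries. Every MCKO library was far above every control library relative to the spread within the groups, at a fold of 3.47 (log2 1.80, SE 0.069, edgeR adjusted p = 6.26e-08). A rise this large or larger on the log2 scale was seen in 2.36% of tested genes. Cdkn1a (ENSMUSG00000023067) lies on chromosome 17 at 29090976 to 29100727. An annotated transcript of unknown kind on the opposite strand overlaps its exons, and the sources used here do not say whether the counting used strand.

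Btg2 encodes an antiproliferative protein that brings a deadenylase to mRNAs. It had 59.4, 57.8 and 56.1 CPM in the MCKO libraries and 20.9, 23.2 and 21.9 CPM in the control libraries. Libraries of a group stayed within a few CPM of each other, and the fold was 2.74 (log2 1.46, SE 0.056, edgeR adjusted p = 6.65e-08). Btg2 (ENSMUSG00000020423) lies on chromosome 1 at 134075170 to 134079120. Its relative Btg1 also rose and averaged 75.8 ± 3.73 CPM in MCKO and 49.3 ± 0.454 CPM in control hearts, a log2 fold change of 0.68 (SE 0.049).

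Plk2 encodes a polo-like kinase that acts in centriole duplication. It had 115.6, 115.2 and 109.9 CPM in the MCKO libraries, against 67.6, 64.3 and 70.2 CPM in the control libraries. Every MCKO library was above every control library, with a log2 fold change of 0.81 (SE 0.046, edgeR adjusted p = 7.24e-07). Plk2 (ENSMUSG00000021701) lies on chromosome 13 at 110395046 to 110400844.

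Ccng1, which encodes cyclin G1, a partner of the phosphatase PP2A that acts on Mdm2, went the other way. It had 98.0, 97.3 and 88.8 CPM in the MCKO libraries and 138.2, 128.0 and 153.3 CPM in the control libraries. All MCKO values lay below all control values, with a log2 fold change of -0.50 (SE 0.067, edgeR adjusted p = 0.000174). Ccng1 (ENSMUSG00000020326) lies on chromosome 11 at 40748552 to 40755311. Its relative Ccng2, cyclin G2, moved in the opposite direction and further: it averaged 139.7 ± 1.58 CPM in MCKO and 30.9 ± 1.76 CPM in control hearts, a log2 fold change of 2.23 (SE 0.050, edgeR adjusted p = 2.71e-09).

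The family relatives of the 10 genes were also counted as a list. Of 17, 14 were tested, 6 rose, 3 fell and 5 did not pass, with a median of 0.11. The 64.3% called is near the 58.4% of all tested genes. Beside Ccng2 and Btg1, the rule for named genes took Ccni, cyclin I, which rose by 0.96 on the log2 scale (SE 0.050), and Cdkn1b, which encodes p27, a kinase inhibitor like p21. Cdkn1b averaged 77.1 ± 4.28 CPM in MCKO and 34.1 ± 2.84 CPM in control hearts, a log2 fold change of 1.24 (SE 0.071). Trp63 and Trp73, the relatives of Trp53, were below the filter in these hearts, as was Isg20, a relative of Aen.

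The proteins that p21 binds are cyclins, their kinases and the replication clamp PCNA. Of their 12 genes, all tested, 9 fell and 1 rose, with a median log2 fold change of -0.22. Over all tested genes, 29.1% fell and 29.3% rose, with a median of 0.00057. Ccne1, the cyclin of entry into S phase, averaged 26.8 ± 1.22 CPM in MCKO and 56.5 ± 0.940 CPM in control hearts, a log2 fold change of -1.02 (SE 0.053). Ccnd1, the cyclin of early G1, averaged 78.0 ± 2.82 CPM in MCKO and 138.5 ± 2.81 CPM in control hearts. Cdk2, the kinase partner of cyclin E, fell by 0.36 on the log2 scale (SE 0.046). Ccnd2 was the gene that rose, by 0.26 (SE 0.043), and without control replicate 2 the number of higher genes was 2.

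Among the genes tied to cell death and stress, Aen was the lowest relative to control. It encodes a nuclease that digests DNA and RNA in dying cells. Aen had 38.4, 38.0 and 38.0 CPM in the MCKO libraries and 77.7, 79.2 and 72.6 CPM in the control libraries. The MCKO libraries lay within 1 CPM of each other, at a fold of 0.521 of control (log2 -0.94, SE 0.051, edgeR adjusted p = 5.37e-07). A fall this large or larger on the log2 scale was seen in 4.78% of tested genes. Aen (ENSMUSG00000030609) lies on chromosome 7 at 78895854 to 78911209.

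Phlda3, which encodes a small protein that keeps the kinase Akt from the membrane, rose modestly. It had 22.0, 25.9 and 24.9 CPM in the MCKO libraries, against 20.2, 21.2 and 19.7 CPM in the control libraries. The lowest MCKO library was less than 1 CPM above the highest control library, and the rise was 0.31 on the log2 scale (SE 0.075, edgeR adjusted p = 0.00566). Phlda3 (ENSMUSG00000041801) lies on chromosome 1 at 135766119 to 135769136.

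Trp53inp1 encodes a stress protein that assists p53 and takes part in autophagy. It had 30.6, 29.4 and 30.4 CPM in the MCKO libraries and 26.2, 24.98 and 34.01 CPM in the control libraries. The groups overlapped: control replicate 3 lay above all MCKO libraries and the other control libraries below them. The log2 fold change was 0.14 (95% interval -0.11 to 0.38, edgeR adjusted p = 0.295), and without control replicate 3 it was 0.29 and passed the test (adjusted p = 0.00147). Trp53inp1 (ENSMUSG00000028211) lies on chromosome 4 at 11156431 to 11174379.

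Zmat3 encodes an RNA-binding zinc finger protein that regulates splicing. It had 59.7, 56.1 and 56.9 CPM in the MCKO libraries and 57.4, 53.9 and 67.2 CPM in the control libraries. The MCKO values lay inside the control range, with a log2 fold change of 0.012 (95% interval -0.16 to 0.18, edgeR adjusted p = 0.905), whose sign changed in 5 of 15 alternatives. On library totals the mean was lower in MCKO (57.6 CPM) than in control hearts (59.5 CPM), while the log2 fold change used TMM scaling. Zmat3 (ENSMUSG00000027663) lies on chromosome 3 at 32334792 to 32366014.

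Compared per length, the rises and falls changed the order of the 10 genes. On the scale of CPM per kilobase of annotated exon, Ccng1 was the most abundant in both groups, at 27.0 ± 1.46 in MCKO and 39.8 ± 3.63 in control hearts. Cdkn1a ranked 7 of 10 in MCKO hearts, at 14.2 ± 0.438, and 10 of 10 in control hearts, at 4.30 ± 0.339. Btg2 ranked 4 in MCKO hearts, at 21.1 ± 0.612, and 7 in control hearts, at 8.03 ± 0.406. Aen ranked 8 in MCKO hearts, at 6.57 ± 0.0365, and 5 in control hearts, at 13.2 ± 0.603. Neighbours in this order whose ranges overlapped were, in MCKO hearts, Ccng1 and Plk2, Trp53 and Btg2, and Phlda3, Mdm2 and Cdkn1a. In control hearts they were Mdm2, Aen and Phlda3, and Zmat3, Trp53inp1 and Cdkn1a. The length is the union of all annotated exons, from 1559 bases for Phlda3 to 11435 for Zmat3, and the transcripts in use in these hearts are not known.

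**Figure D3:**
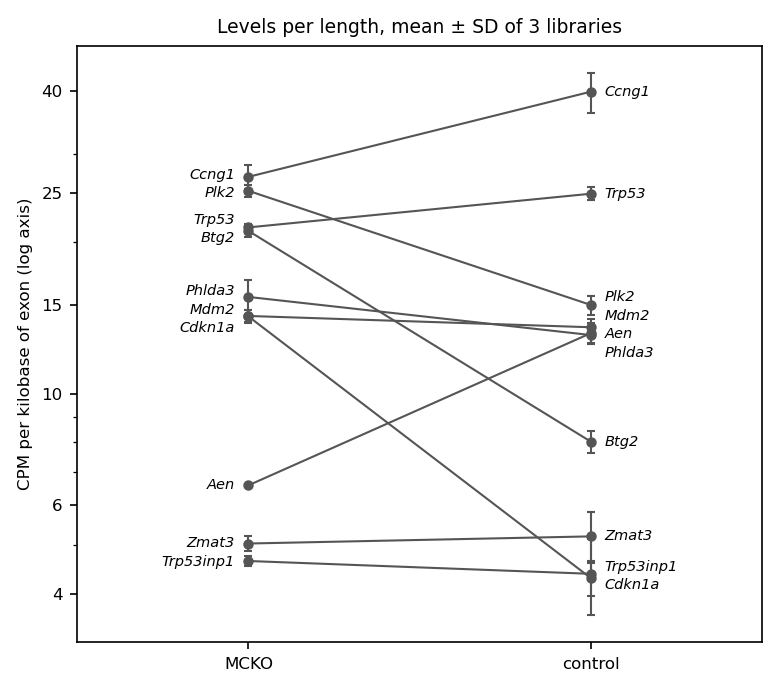
Mean CPM per kilobase of annotated exon (vertical log axis) with SD over 3 libraries for the 10 genes in MCKO and control hearts, joined by lines. Cdkn1a is last in control hearts at 4.30 and level with Mdm2 in MCKO hearts at 14.2, and the line of Aen runs the other way.

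Other genes known to be induced by p53 were counted apart. Of 28 on a list outside the BCL2 family, 25 were tested, 10 rose, 9 fell and 6 did not pass. The median log2 fold change was 0.10. Over all tested genes, 29.3% rose and 29.1% fell. These numbers leave out p53-induced genes listed apart below: Ddit4, Sesn2, Tnfrsf10b, Bbc3 and Pmaip1, which rose, and Bax, which was not called. Pltp, a phospholipid transfer protein, averaged 6.64 ± 0.339 CPM in MCKO and 1.80 ± 0.160 CPM in control hearts, a log2 fold change of 1.96 (SE 0.13). Polk, a DNA polymerase that copies past damage, rose by 0.96 on the log2 scale (SE 0.093), and Ephx1, an epoxide hydrolase, by 1.34 (SE 0.22), at 2.80 ± 0.378 CPM in MCKO and 1.17 ± 0.327 CPM in control hearts. Rps27l, a ribosomal protein relative, fell by 0.45 on the log2 scale (SE 0.044), and Ckap2, a spindle protein, by 0.54 (SE 0.050). Sfn, Tap1 and Spata18 were below the filter.

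Some p53-induced genes that are also known targets of ATF4, CHOP or HIF-1 were listed apart. This list too was written with earlier results of these data known. Of 4, 3 were tested and all 3 rose, against 29.3% of all tested genes. Ddit4 and Sesn2, which both restrain the growth kinase complex mTORC1, averaged 184.8 ± 17.4 and 62.7 ± 1.55 CPM in MCKO, against 16.7 ± 2.08 and 11.8 ± 0.333 CPM in control hearts. Their log2 fold changes were 3.54 (SE 0.11) and 2.47 (SE 0.055). Tnfrsf10b, a death receptor, rose by 0.41 (SE 0.083), and Gdf15 was below the filter. Of the 3 BCL2 family targets, all tested, 2 rose, against 29.3% of all tested genes. Bbc3, which encodes PUMA, and Pmaip1, which encodes NOXA, rose by 2.13 (SE 0.24) and 1.98 (SE 0.12). Bax was not called, at 46.4 ± 1.96 CPM in MCKO and 44.4 ± 4.06 CPM in control hearts.

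**Figure D4:**
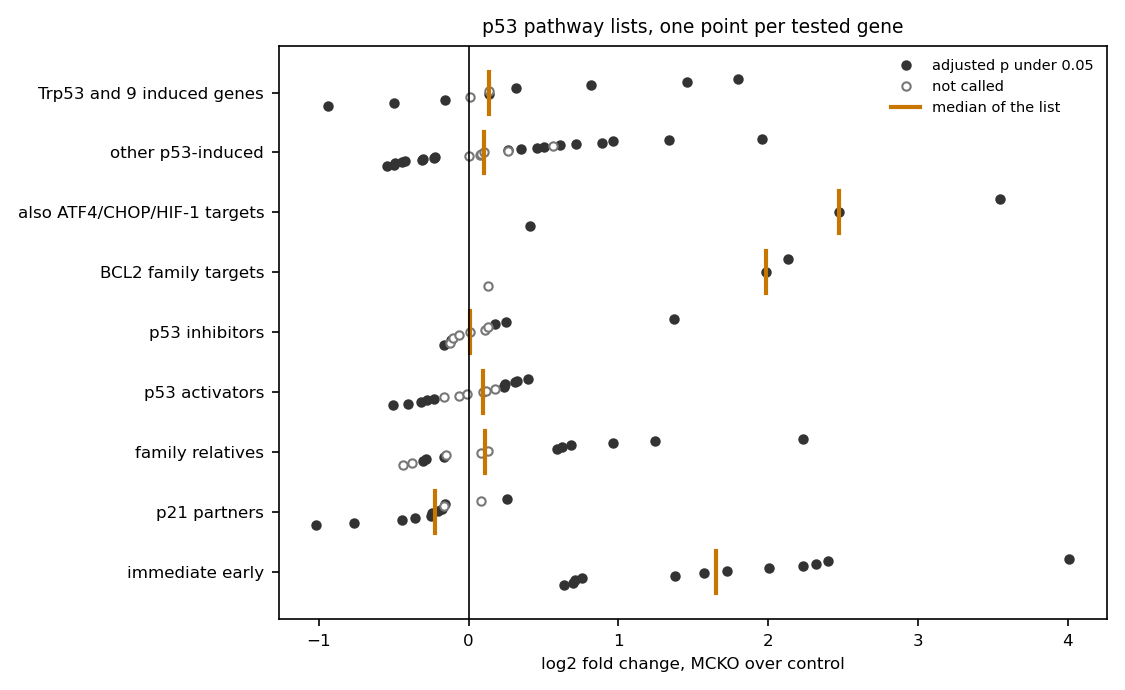
Log2 fold changes of MCKO over control (horizontal axis) for each tested gene of 9 lists, with filled points for called genes and a bar at each list's median. Trp53 with its 9 induced genes and the other p53-induced genes spread on both sides of 0, with medians of 0.14 and 0.10. All tested immediate early genes lie above 0, with a median of 1.65. So do all tested genes of the ATF4, CHOP or HIF-1 list (median 2.47) and of the BCL2 family list (1.98). The lists were written with earlier results of these data known.

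Immediate early genes, the class to which Btg2 and Plk2 are also assigned, rose. Their list was written with earlier results of these data known, so its count is a description only. Of 12 on the list, all tested, 12 rose, against 29.3% of all tested genes, with a median log2 fold change of 1.65. Over the alternatives the number ran from 10 to 12. It was 10 with at least 50 counts in 3 libraries, where Egr2 and Fosb were not tested. Ier3, an early response gene, averaged 68.8 ± 3.58 CPM in MCKO and 4.48 ± 0.357 CPM in control hearts. Atf3 and Nr4a1, which encode transcription factors, had log2 fold changes of 1.57 (SE 0.056) and 1.72 (SE 0.066). Fos, a subunit of AP-1, averaged 19.4 ± 0.959 CPM in MCKO and 5.08 ± 0.437 CPM in control hearts, and Egr1 had a log2 fold change of 1.38 (SE 0.073). Junb, Egr2 and Fosb had log2 fold changes of 2.40 (SE 0.25), 2.32 (SE 0.38) and 2.23 (SE 0.61). Fosb had at most 2.01 CPM in any library, and its call was lost without MCKO replicate 2, MCKO replicate 3 or control replicate 3 (edgeR adjusted p = 0.0513 to 0.0664). Btg2 at 1.46 and Plk2 at 0.81 lay below the median of this list.

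Markers of other cell types moved with the same groups, and their part in the values of the 10 genes was not tested. The counts below are to be read against the 29.3% of all tested genes that rose and the 29.1% that fell. All 8 markers of primitive red cells rose, with summed levels of 6387 to 6801 CPM in MCKO and 3043 to 3337 CPM in control hearts. All 6 markers of pharyngeal and other epithelium rose (623.4 to 696.2 CPM in MCKO, 191.7 to 210.8 CPM in control hearts). Keratin genes made up nearly all of this sum, and Krt19 alone averaged 394.6 CPM in MCKO and 42.6 CPM in control hearts. Epcam, Cdh1 and Foxa2 were low, at means of 5.41, 3.26 and 1.42 CPM in MCKO and 0.898, 1.31 and 0.315 CPM in control hearts. All 6 markers of epicardium fell (77.6 to 79.1 CPM in MCKO, 196.5 to 205.8 CPM in control hearts). Of 6 markers of cushion and neural crest mesenchyme 5 fell (116.9 to 124.1 CPM in MCKO, 208.6 to 218.9 CPM in control hearts), and of 9 markers of endothelium and endocardium 7 rose and 2 fell (1270 to 1303 CPM in MCKO, 1096 to 1127 CPM in control hearts). The 8 markers of heart muscle were all well detected, 4 rose and 1 fell, and they summed to 38193 to 39988 CPM in MCKO and 31655 to 35300 CPM in control hearts. Their 62.5% called is near the 58.4% of all tested genes. Of 5 macrophage markers 3 were tested: Csf1r fell (log2 fold change -1.24, SE 0.21), and Cd68 and Cx3cr1 were not called. Ptprc and Adgre1 were below the filter, with Adgre1 at no more than 3 counts in any library. Macrophage markers summed to 3.81 to 4.90 CPM in MCKO and 6.11 to 6.65 CPM in control hearts. No marker was at 0 in all 6 libraries.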

How the data were processed

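RNA of whole embryonic hearts was measured in 3 MCKO and 3 control libraries, from column-purified RNA (Aurum kit) and a stranded TruSeq mRNA kit, per the labels' protocols. The deposited table gives whole-number estimated counts for each Ensembl gene ID, with no scaling for depth or length. The submitters' processing notes name kallisto and mm10, with no version or role. The sources used here do not give the transcript set or the rounding. The knockout columns, headed CKO, were matched to the MCKO titles by the rest of the name.

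From these counts, edgeR 4.0.16 in R 4.3.3 (filterByExpr, TMM, robust quasi-likelihood fit, group as the only term, 2-sided, Benjamini-Hochberg over 14697 genes) gave log2 fold changes of MCKO over control with SE. Called means an adjusted p under 0.05. CPM are shares of library totals. A count of 3 corresponds to 0.0876 to 0.156 CPM in these libraries, the most that a count of 0 allows, which covers counting error only. Symbols were matched for 29857 IDs. Coordinates came from GENCODE M21 on GRCm38, which is mm10, and promoters from RefSeq on GRCm38.p6. No near-identical copy of a member was found with minimap2 2.31 at 95% identity over 80% of the longest transcript. Alternatives were other size factors, other filters, DESeq2 1.42.0, limma-voom (limma 3.58.1), no mitochondrially encoded genes, a replicate block and each library left out. The members, lists and tests were chosen with earlier results of these data known. Named are Cdc42, the members and, from each list, up to 4 called genes by smallest p and any other called gene at least 2-fold changed, or the gene with the smallest p where none was called. Mdm4 and Bax, genes below the filter and the summed cell type markers are named outside this rule, after their values were seen.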

Additional observations from a re-analysis of the deposited data

How the results depend on the processing

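Over 15 alternatives, Cdkn1a (1.73 to 1.85), Btg2 (1.39 to 1.49), Plk2 (0.75 to 0.84), Phlda3 (0.25 to 0.38), Trp53 (-0.22 to -0.14), Ccng1 (-0.56 to -0.43) and Aen (-1.003 with library totals only to -0.92) kept their direction and their call on the log2 scale, as did Cdc42 (-0.72 to -0.62). The number of members called ran from 7 to 9, with 4 to 6 higher and 3 lower. Mdm2 lost its call with library totals only (0.0731, edgeR adjusted p = 0.221), upper quartile size factors (0.12, 0.0526), DESeq2 (0.13, 0.0672), the replicate block (0.14, 0.0913) and 5 of the 6 settings without a library. Zmat3 changed sign with library totals only (-0.0505) and upper quartile size factors (-0.00516), which moved the median of all genes by -0.062 and -0.017. It also changed sign without MCKO replicate 1 (-0.0128), without control replicate 1 (-0.0180) and without control replicate 2 (-0.0525). Without a library Zmat3 ran from -0.0525 to 0.108, and the cause of this was not tested. With library totals only, 42.6% of calls were higher, against 50.2% with TMM. With at least 50 counts in 3 libraries, 1043 genes were called with at least a 2-fold change, against 1619, where fewer genes were tested (12429). Without control replicate 3, Trp53inp1 passed (0.29, edgeR adjusted p = 0.00147). Trim24 lost its call with library totals only (adjusted p = 0.0656). With the replicate block 7765 genes were called, against 8587, and Huwe1 lost its call (adjusted p = 0.0574). The deviations of same-numbered libraries correlated at -0.0047, 0.022 and -0.13, so the numbers were not taken to pair samples. Leaving out each library gave 7452 to 8695 called genes.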
